A study of Mus musculus with 6 samples.

Results

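In meiotic prophase I, telomeres are fixed to the inner face of the nuclear envelope and pulled along it, which brings homologous chromosomes together. The 9 genes examined here encode this machinery and were taken by name from the 54532 genes of the expression table, where all 9 were found. *Terb1*, *Terb2* and *Majin* encode the complex that fastens telomeres to the inner nuclear membrane. *Sun1* and *Sun2* encode SUN proteins of that membrane, and *Ccdc155* encodes KASH5 of the outer membrane, which binds SUN1 on one side and cytoplasmic dynein on the other. *Spdya* encodes Speedy A, which binds and activates the kinase CDK2 at telomeres, and *Terf1* encodes a telomere DNA-binding protein of the shelterin complex. In female mice these events take place in the fetal ovary, soon after germ cells enter meiosis.

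Whole ovaries at 16.5 dpc from C57BL/6 mice gave 3 Ctrl and 3 cKO RNA-seq libraries. The cKO mice carried the *Stra8-GFPCre* transgene, which is driven by the *Stra8* promoter at the start of meiosis, together with floxed *Srsf1* (Srsf1 Fl/Fl), so that only germ cells were meant to lose *Srsf1*, a splicing factor gene. The Ctrl mice are given as wild type in the labels, with no transgene or floxed allele named for them. Neither the labels nor the methods say whether a library held 1 animal or pooled animals. Levels are FPKM, the reads on a gene per kilobase of its exons, scaled to library size, and errors of group means are SD over 3 libraries.

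Reads on genes were between 14212164 and 16784241 per library. *Srsf1* stood at 63.1 to 80.2 FPKM in Ctrl and 32.4 to 37.0 FPKM in cKO, with no overlap, so this gene matched the labels, although somatic cells of the ovary also express it. One protocol field of the labels names retinas, so 8 retina genes were checked, and they summed to 0.334 to 0.759 FPKM, with *Crx* at 0 in all 6 libraries. The pregranulosa cell list of 10 genes summed to 456 to 542 FPKM in Ctrl and 413 to 653 FPKM in cKO. The germ-cell list of 10 genes (*Ddx4*, *Dazl*, *Mael*, *Tex14*, *Dnd1*, *Piwil2*, *Tdrd1*, *Mov10l1*, *Rnf17* and *Taf7l*) summed to 107, 209 and 385 FPKM in Ctrl 1, 2 and 3 and to 533, 205 and 588 FPKM in cKO 1, 2 and 3. The libraries of each group therefore differed several-fold in the summed level of this list, with cKO 2 among the Ctrl libraries. Of the 10 genes *Dnd1* went the other way, highest in Ctrl 1 at 4.15 FPKM and lowest in cKO 1 at 0.858 FPKM. Haemoglobin genes took 1.69% of the reads on genes in Ctrl 1 and 0.129% to 0.796% in the other libraries. Of the marker genes of other cell types, *Hbb-y*, an embryonic haemoglobin gene, was higher in cKO (8.74 ± 2.29 against 50.0 ± 43.0 FPKM in Ctrl and cKO) and *Gata3*, a mesonephros marker, lower (1.47 ± 0.273 against 0.647 ± 0.163 FPKM), both past the unadjusted limma p of 0.05 used below. The part of these other cells in the results was not tested. The number of germ cells and the RNA of a gene per germ cell cannot be told apart in whole ovaries, and this holds for every germ-cell gene below. Germ-cell genes did not all move together. Besides *Dnd1*, the meiotic cohesin gene *Rec8* was also highest in Ctrl 1 (50.7 FPKM) and next in cKO 2 (47.5 FPKM). Why these genes ran opposite to most of the list was not tested.

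All 9 genes were detected in every library, from 49 reads for *Terb2* in Ctrl 1 to 3123 reads for *Sun1* in cKO 1, and all 9 passed the minimum mean of 0.5 FPKM. In Ctrl the mean levels, from high to low, ran *Cdk2*, *Sun1*, *Majin*, *Sun2*, *Terb1*, *Spdya*, *Terf1*, *Ccdc155* and *Terb2*. Most neighbours in this order had overlapping ranges. The exceptions were *Cdk2*, whose 3 Ctrl values lay above those of *Sun1*, and *Terf1*, whose 3 values lay above those of *Ccdc155*. In cKO the order was *Majin*, *Sun1*, *Terb1*, *Spdya*, *Cdk2*, *Sun2*, *Terf1*, *Terb2* and *Ccdc155*, and only *Sun2* and *Terf1* were apart among its neighbours. The position of a gene in either order thus rested largely on which libraries were averaged.

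**Figure D1:**
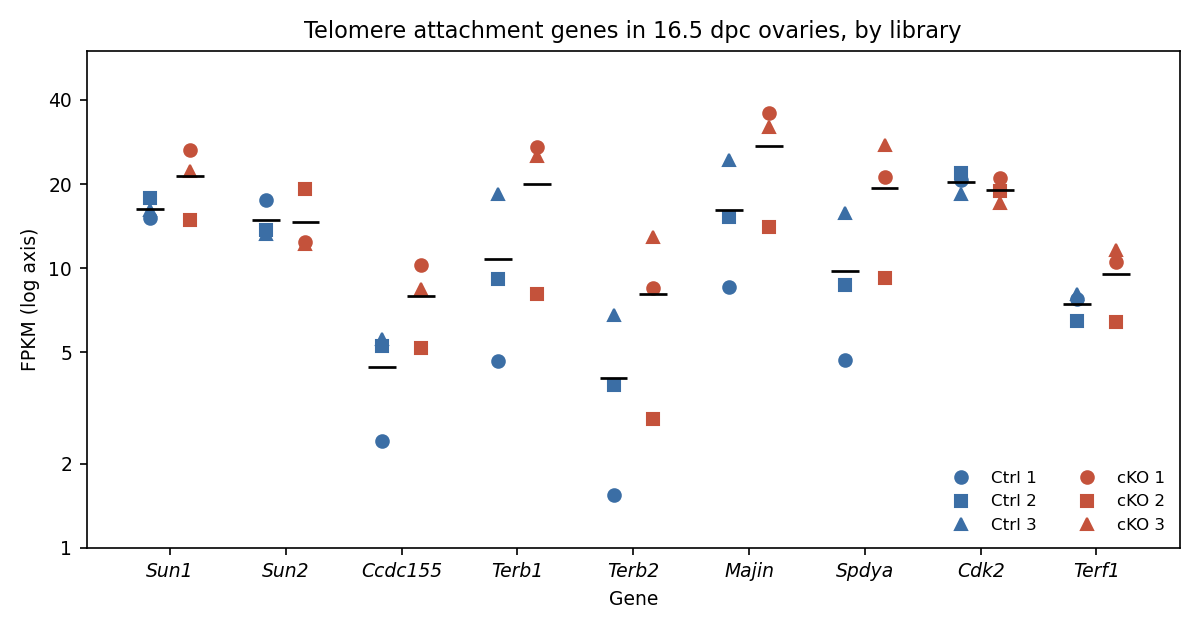
Level of each gene in FPKM on a log axis, with 1 point per library, Ctrl in blue and cKO in red, and a bar at each group mean. For *Ccdc155*, *Terb1*, *Terb2*, *Majin* and *Spdya*, Ctrl 1 is the lowest library and cKO 1 and cKO 3 the highest, while cKO 2 lies below Ctrl 3. The levels of *Cdk2* lie between 17.1 and 21.9 FPKM.

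To ask whether loss of *Srsf1* in germ cells changed the level of this machinery, cKO was compared with Ctrl for each gene with limma on log2(FPKM + 1), across all 17180 genes with a mean of at least 0.5 FPKM. None of the 9 genes passed an unadjusted p below 0.05, the limit the study used, and 4.43% of all genes tested did, or 761 genes. Single genes are given below with their exact permutation p, and that limit is called the unadjusted limit. With limma's voom on the recovered reads, 724 of 17180 genes (4.21%) and again 0 of the 9 passed it. After Benjamini-Hochberg adjustment over all genes limma called 0 genes by either route, and on log2(FPKM + 1) the adjusted p of the 9 genes was between 0.978 and 0.994. Group ranges overlapped for all 9, against 8.68% of all genes tested whose groups did not overlap. The fold change was above 0 for 7 of the 9, with a median of 0.74 on the log2 scale, beside -0.01 over all genes tested, of which 47.8% were above 0. Exact permutation tests, two-sided, gave p between 0.2 and 0.8 for the 9 genes, where 3 libraries against 3 cannot go below 0.1. Log2 fold changes on this scale understate the change of genes with low values.

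The telomere end of the machinery, the TERB1-TERB2-MAJIN complex, had mean levels in cKO 1.70 to 1.99 times those in Ctrl, and the spread between libraries was as large. *Terb1* (ENSMUSG00000052616), which encodes the subunit that binds the shelterin protein TERF1, measured 4.66, 9.18 and 18.5 FPKM in Ctrl 1, 2 and 3 and 27.1, 8.11 and 25.2 FPKM in cKO 1, 2 and 3. The libraries cKO 1 and cKO 3 were above every Ctrl library, and cKO 2 was below Ctrl 2. Means were 10.8 ± 7.08 FPKM in Ctrl and 20.1 ± 10.5 FPKM in cKO, a log2 fold change of 0.86 (SE 0.57, exact permutation p = 0.3), with a 95% interval from -0.50 to 2.22. Its partner *Terb2* (ENSMUSG00000027229), which links TERB1 to MAJIN, was the least expressed member in Ctrl, with 1.54, 3.83 and 6.79 FPKM against 8.47, 2.90 and 12.9 FPKM in cKO. Again only cKO 2 fell within the Ctrl range. The log2 fold change of *Terb2* was 0.81 (SE 0.56, exact permutation p = 0.4), with an interval from -0.52 to 2.14, and the 49 reads behind its lowest value allow 36.3 to 64.8 reads by counting error alone (exact 95% Poisson interval).

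*Majin* (ENSMUSG00000024786), whose product holds the complex in the inner nuclear membrane, was the most abundant of the 3, with 8.57, 15.2 and 24.4 FPKM in Ctrl and 35.9, 14.1 and 32.1 FPKM in cKO. Its values in cKO 1 and cKO 3 exceeded all Ctrl values, and cKO 2 lay between Ctrl 1 and Ctrl 2. The log2 fold change was 0.74 (SE 0.45, exact permutation p = 0.3), with an interval from -0.33 to 1.81. The proportions of the 3 subunits varied less between libraries than their levels, which differed by 4.19-fold for *Majin*, 5.81-fold for *Terb1* and 8.32-fold for *Terb2*. Genes outside the complex had profiles closer to that of *Majin* than *Terb1* had, as given below. *Terb1* stood at 0.544 to 0.786 of the *Majin* level, a 1.45-fold spread over the 6 libraries, and the FPKM ratio of *Terb1* to *Terb2* was 1.96 to 3.20. In cKO the *Terb1* to *Majin* ratio was 0.705 ± 0.115 against 0.635 ± 0.112 in Ctrl, a difference within the spread (exact permutation p = 0.6). The *Terb2* to *Majin* ratio, 0.281 ± 0.105 in cKO and 0.237 ± 0.0508 in Ctrl, did not separate the groups either (exact permutation p = 0.7).

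On the outer membrane side, *Ccdc155* (ENSMUSG00000038292), the KASH5 gene, came closest to the unadjusted limit. It measured 2.42, 5.28 and 5.59 FPKM in Ctrl and 10.3, 5.17 and 8.40 FPKM in cKO. Both cKO 1 and cKO 3 were above all Ctrl libraries, and cKO 2 was just below Ctrl 2. Means of 4.43 ± 1.74 and 7.95 ± 2.59 FPKM gave a log2 fold change of 0.74 (SE 0.32, exact permutation p = 0.3), with an interval from -0.03 to 1.5. With quantile normalization, where 4.42% of all genes passed the unadjusted limit, the same fold change passed it (adjusted p = 0.958).

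The SUN genes of the inner membrane are also expressed outside the germ line, and they varied less. *Sun1* (ENSMUSG00000036817), whose product is the partner of KASH5 in meiosis, measured 15.1, 17.8 and 16.1 FPKM in Ctrl and 26.6, 14.9 and 22.2 FPKM in cKO. The Ctrl libraries were within a narrow range that cKO 1 and cKO 3 exceeded and cKO 2 did not reach. The log2 fold change of *Sun1* was 0.33 (SE 0.21, exact permutation p = 0.4), with an interval from -0.17 to 0.83. *Sun2* (ENSMUSG00000042524), which encodes a broadly expressed relative of SUN1, measured 17.6, 13.7 and 13.3 FPKM in Ctrl and 12.4, 19.2 and 12.2 FPKM in cKO. Its order of libraries was opposite to that of the meiotic genes, with cKO 2 and Ctrl 1 highest. Its log2 fold change of -0.04 (SE 0.20, exact permutation p = 0.8) had an interval from -0.53 to 0.44. As a result the *Sun1* to *Sun2* ratio ran from 0.779 in cKO 2 to 2.14 in cKO 1, with group means of 1.12 ± 0.231 in Ctrl and 1.58 ± 0.712 in cKO (exact permutation p = 0.5).

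The kinase pair differed in the same way. *Spdya* (ENSMUSG00000052525) had the highest log2 fold change of the 9, with 4.70, 8.74 and 15.8 FPKM in Ctrl and 21.2, 9.25 and 27.6 FPKM in cKO. Here too cKO 1 and cKO 3 exceeded every Ctrl library, and cKO 2 was close to Ctrl 2. The log2 fold change was 0.94 (SE 0.50, exact permutation p = 0.2), with an interval from -0.24 to 2.11. *Cdk2* (ENSMUSG00000025358), the kinase that Speedy A activates and that dividing somatic cells also use, measured 20.7, 21.9 and 18.4 FPKM in Ctrl and 21.1, 18.9 and 17.1 FPKM in cKO. It was the most even of the 9, with a 1.28-fold range over the 6 libraries and a log2 fold change of -0.09 (SE 0.13, exact permutation p = 0.5, interval -0.40 to 0.21). The FPKM ratio of *Cdk2* to *Spdya* was 4.40, 2.50 and 1.17 in Ctrl and 0.992, 2.04 and 0.620 in cKO, a 7.10-fold range within which the groups overlapped (exact permutation p = 0.2).

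*Terf1* (ENSMUSG00000025925), which is active in all dividing cells, measured 7.76, 6.47 and 8.07 FPKM in Ctrl and 10.5, 6.41 and 11.6 FPKM in cKO. The Ctrl libraries were close to each other, cKO 1 and cKO 3 were above them and cKO 2 was level with Ctrl 2. Its log2 fold change was 0.29 (SE 0.22, exact permutation p = 0.4), with an interval from -0.23 to 0.80.

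The 9 genes fell into 5 whose Ctrl libraries were already far apart and 4 whose Ctrl libraries were close. The coefficient of variation within Ctrl was 39.4% for *Ccdc155*, 49.4% for *Majin*, 57.6% for *Spdya*, 64.9% for *Terb2* and 65.6% for *Terb1*. It was 8.30% for *Sun1*, 8.61% for *Cdk2*, 11.4% for *Terf1* and 15.8% for *Sun2*. All 5 genes of the first kind were lowest in Ctrl 1, as were 9 of the 10 germ-cell list genes, and all 5 had cKO 2 below Ctrl 3. The order of the libraries was the same for *Ccdc155*, *Majin* and *Terb1*, from low to high, with Ctrl 1, cKO 2, Ctrl 2, Ctrl 3, cKO 3 and cKO 1. For *Terb2* cKO 1 and cKO 3 changed places, which is the order of *Ddx4* and *Rnf17*.

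The calls turned on single libraries. Without cKO 2, 7 of the 9 genes were higher in cKO at an unadjusted p below 0.05, while 8.46% of the 17275 genes then tested were higher at that limit. The log2 fold changes were then 0.55 for *Sun1*, 0.52 for *Terf1*, 0.98 for *Ccdc155*, 1.37 for *Spdya*, 1.15 for *Majin*, 1.38 for *Terb1* and 1.32 for *Terb2*. None of these passed after adjustment, where p in limma was between 0.219 for *Sun1* and 0.318 for *Terb2*. *Sun2* and *Cdk2* did not pass. Without Ctrl 3, *Ccdc155* (log2 fold change 0.90), *Majin* (1.08) and *Spdya* (1.33) passed in limma, where 6.87% of all genes did in either direction. Without Ctrl 1, the library with the lowest level of the germ-cell list and the most haemoglobin, 0 of the 9 passed and 3.66% of all genes did. The log2 fold change was then 0.42 for *Terb1* and 0.38 for *Terb2* and *Majin*. The germ-cell list moved with the same libraries, since its mean log2 level, centred over the 6, was -1.05, -0.24 and 0.49 in Ctrl and 0.56, -0.42 and 0.67 in cKO.

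**Figure D2:**
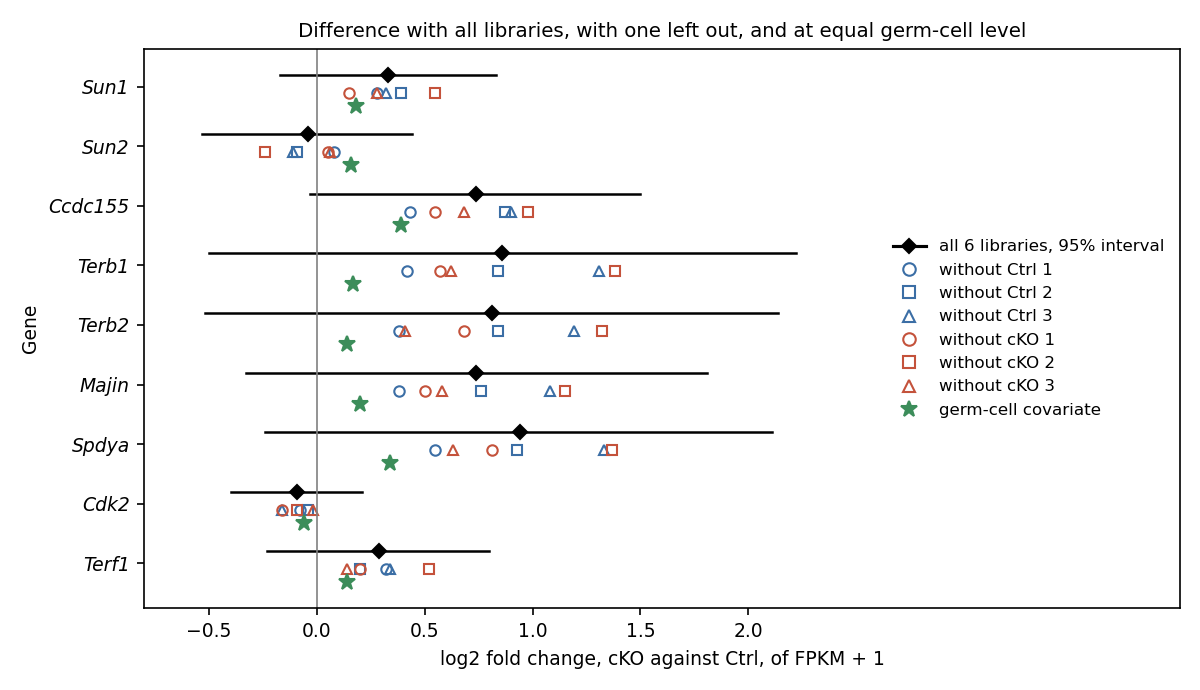
Log2 fold change of FPKM + 1, cKO against Ctrl, for each gene. Black diamonds with bars give the value and 95% interval with all 6 libraries, open symbols the value with 1 library left out, and green stars the value with the mean of the 10 germ-cell genes as a covariate. Every interval with all libraries holds 0, the values without cKO 2 are the highest for 7 genes, and with the covariate the values lie between -0.06 and 0.39.

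The levels were therefore also compared with the mean of the germ-cell list held equal, called the germ-cell covariate below. This mean comes from the same ovaries and is not a measure of the number of germ cells. With the mean of the germ-cell list as a covariate in limma, the 9 genes had a median log2 fold change of 0.17, and the values of *Terb1*, *Terb2* and *Majin* were 0.17, 0.14 and 0.20. *Ccdc155* was at 0.39 (SE 0.18) and did not pass the unadjusted limit. *Spdya* was the one gene of the 9 past the unadjusted limit, at 0.34 (SE 0.13, adjusted p = 0.871), while 5.70% of all genes passed it. The list includes *Dazl*, an RNA-binding protein gene of germ cells. Without the covariate *Dazl* was itself higher in cKO by a log2 fold change of 1.60 in limma (adjusted p = 0.978). In that fit it was the only one of the 10 past the unadjusted limit. With the covariate 5 of the 10 passed it, 3 higher and 2 lower, so the list genes did not all follow their own mean. The covariate rests on 6 libraries.

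The difference between each gene and the mean of the germ-cell list in the same library, on the log2(FPKM + 1) scale, was also compared between groups. For *Spdya* this difference was -0.52, -0.56 and -0.50 in Ctrl and -0.17, -0.30 and 0.09 in cKO. All 3 cKO libraries were above all 3 Ctrl libraries, which were within 0.06 of each other, and the means differed by 0.40 (exact permutation p = 0.1, the smallest possible). For *Majin* it was 0.22, 0.18 and 0.10 in Ctrl and 0.56, 0.26 and 0.30 in cKO, again without overlap and with a difference of 0.21 (exact permutation p = 0.1). The groups overlapped for the other 7 genes. On this scale they did not overlap for 2.65% of all 17180 genes tested, in either direction, and cKO was above Ctrl for 0.308%. A gene with even levels overlaps here by construction, because the list mean of cKO 2 lay among those of Ctrl. These shares are therefore not a chance rate for genes that follow the list. *Terb1* differed by 0.32 (exact permutation p = 0.2), *Terb2* by 0.27 (exact permutation p = 0.4) and *Ccdc155* by 0.20 (exact permutation p = 0.5). The level of *Ccdc155* relative to *Sun1*, its partner across the envelope, was -2.23, -1.58 and -1.38 in Ctrl and -1.29, -1.37 and -1.31 in cKO. These did not overlap either, although cKO 2 was only 0.01 above Ctrl 3, and the means differed by 0.41 (exact permutation p = 0.1). Over the 16 such differences computed, the lowest Benjamini-Hochberg adjusted p was 0.533.

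**Figure D3:**
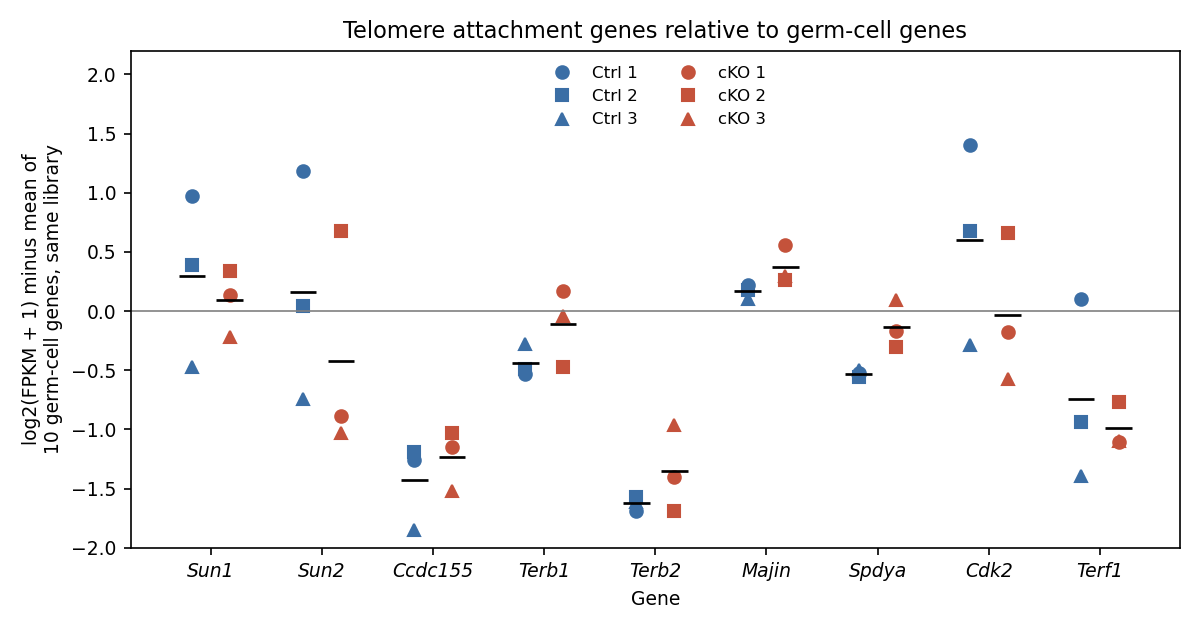
Level of each gene minus the mean of 10 germ-cell genes in the same library, both as log2(FPKM + 1), with 1 point per library and a bar at each group mean. For *Spdya* and *Majin* the 3 cKO points (red) lie above the 3 Ctrl points (blue), while for *Sun2* and *Cdk2* the points of each group are spread over more than 1 log2 unit.

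The *Spdya* gene shares exon sequence with its neighbours, 402 bases with *Trmt61b* on the opposite strand and 250 bases with the pseudogene *Mettl4-ps1* on the same strand, and no source used here says whether the counting was stranded. *Trmt61b* measured 0.883 ± 0.210 FPKM in Ctrl and 1.49 ± 0.662 FPKM in cKO, and *Mettl4-ps1* 0.469 ± 0.455 and 0.758 ± 0.420 FPKM, both far below *Spdya*. *Sun1*, *Sun2* and *Cdk2* share 302, 147 and 34 exon bases with genes on the opposite strand, none of which exceeded 3.02 FPKM in any library. *Ccdc155*, *Majin*, *Terb1*, *Terb2* and *Terf1* share none.

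In GRCm38 coordinates the genes lie on 9 chromosomes. *Sun1* spans chr5:139200637-139249840 (plus strand), *Sun2* chr15:79724070-79742536 (minus), *Ccdc155* chr7:45183624-45204892 (minus), *Majin* chr19:6184388-6224225 (plus) and *Terb1* chr8:104446719-104509910 (minus). *Terb2* spans chr2:122186272-122206397 (plus), *Spdya* chr17:71552061-71589533 (plus), *Cdk2* chr10:128697939-128705031 (minus) and *Terf1* chr1:15805646-15844052 (plus). The FPKM of a gene pools all its annotated transcripts, of which there are 20 for *Sun1* and 2 for *Ccdc155*, *Majin* and *Terb2*, so a change in splicing at an even total would not be seen in these values.

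Because *Ccdc155*, *Terb1* and *Spdya* followed one order of libraries or nearly so, the sequences around their start sites are shown. They are RefSeq windows of GRCm38.p6, 300 bases long and beginning 250 bases before the start base, 5′ to 3′ on the strand of the gene. RefSeq windows were at hand for 6 of the 9 genes. They were searched on both strands for CNCCTCAG, a motif of STRA8, the transcription factor that starts meiosis, for GCGGGAA, an E2F motif, and for the E-box CACGTG. Capitals mark matches, and *Ccdc155* at chr7:45204843-45205142 (minus), *Terb1* at chr8:104509838-104510137 (minus) and *Spdya* at chr17:71551811-71552110 (plus) read as follows.
Ccdc155: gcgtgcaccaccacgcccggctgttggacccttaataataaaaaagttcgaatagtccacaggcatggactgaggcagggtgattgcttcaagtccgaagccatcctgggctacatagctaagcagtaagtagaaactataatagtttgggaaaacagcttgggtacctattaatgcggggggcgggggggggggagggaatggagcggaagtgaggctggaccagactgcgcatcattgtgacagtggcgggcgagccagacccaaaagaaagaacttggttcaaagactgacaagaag
Terb1: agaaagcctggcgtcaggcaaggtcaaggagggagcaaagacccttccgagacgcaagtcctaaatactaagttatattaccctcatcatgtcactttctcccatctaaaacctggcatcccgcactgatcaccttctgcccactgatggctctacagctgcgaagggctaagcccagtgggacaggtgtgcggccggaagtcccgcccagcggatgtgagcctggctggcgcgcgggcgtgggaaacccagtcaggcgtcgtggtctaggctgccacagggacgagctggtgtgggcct
Spdya: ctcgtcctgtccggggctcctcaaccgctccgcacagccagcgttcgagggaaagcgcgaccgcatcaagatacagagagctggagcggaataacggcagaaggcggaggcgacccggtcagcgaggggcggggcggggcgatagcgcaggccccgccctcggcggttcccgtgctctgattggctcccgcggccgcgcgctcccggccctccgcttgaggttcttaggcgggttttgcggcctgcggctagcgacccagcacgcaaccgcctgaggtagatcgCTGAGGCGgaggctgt
The *Spdya* window holds 1 match to the STRA8 motif, on the reverse strand, 34 bases after the start base, while the windows of *Ccdc155* and *Terb1* hold no match to any of the 3 motifs. Over the 7 windows of the 6 genes, 3 hold the STRA8 motif, the others being those of *Sun1* and *Cdk2*, against 7.9% of 32851 windows in all. The *Cdk2* window alone holds the E2F motif, which 4.6% of all windows hold, and no window of the 6 genes holds the E-box, which 7.2% hold. GC content was 52.3% in the *Ccdc155* window, 59.3% in the *Terb1* window and 69.7% in the *Spdya* window. A match is a run of letters and does not show binding, and a role of the motif in the levels was not tested.

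For the 5 genes whose libraries lay far apart, the 3 other tested genes with the most similar profile over the 6 libraries were found by the root mean square difference of centred log2 levels. For *Majin* these were *Dmc1*, the meiotic strand exchange gene, at 0.056, then *Tdrkh*, a piRNA pathway gene, at 0.060 and *Zcwpw1*, a histone reader gene of meiotic recombination, at 0.061. For *Terb1* they were *Sycp2*, a gene of the chromosome axis, at 0.114, *Taf7l*, one of the germ-cell list, at 0.120 and *Tex15* at 0.125. For *Terb2* they were *Xlr* at 0.085, *Gm15262* at 0.090 and *Spata22*, a meiotic recombination gene, at 0.123. *Spdya* was most like *Slc25a31*, a mitochondrial carrier gene, at 0.080, the long noncoding RNA gene 4933427D06Rik at 0.110 and *Xlr* at 0.112. Each of these 4 genes thus had 3 others whose profile lay within 0.125 log2 units of its own. The median distance over all genes compared was 0.72 for *Majin* to 0.88 for *Terb1*. These neighbours are the closest of 17171 genes, so a near match does not by itself show a shared role. *Ccdc155* had other neighbours, namely the pseudogene *Gm13146* at 0.078, *Adarb1*, which encodes an RNA editing enzyme, at 0.105 and *H2-D1*, a major histocompatibility gene, at 0.108. Among the machinery itself, *Terb2* and *Spdya* were the most alike, at 0.127, followed by *Majin* and *Terb1* at 0.179 and *Terb1* and *Spdya* at 0.180.

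The other genes of the pathway were counted in 5 lists. None of 15 meiotic genes of the chromosome axis, cohesin and recombination passed the unadjusted limit. Of these, 14 had a log2 fold change above 0 and the list median was 0.54. With the germ-cell covariate 7 were above 0 and 8 below, with a median of -0.01, and without Ctrl 1 the median was 0.18. In limma 4 of the 15 passed the unadjusted limit with the germ-cell covariate, 2 higher and 2 lower, where 5.70% of all genes did. None of these passed after adjustment. With all 6 libraries and no covariate, the closest to the limit was *Rad21l*, a meiotic cohesin gene, at 1.31 (exact permutation p = 0.2). Next was *Hormad2*, an axis gene, at 1.16 (exact permutation p = 0.2). *Fbxo47*, which encodes a meiotic F-box protein, was at 0.89 (exact permutation p = 0.3), with the same spread as the telomere genes, from 6.78 to 20.8 FPKM in Ctrl and from 11.5 to 38.4 FPKM in cKO. The exception in sign was *Rec8*, a cohesin gene, at -0.27 (exact permutation p = 0.5), which was highest in Ctrl 1 and cKO 2. Without cKO 2, where 8.46% of all genes tested were higher past the limit and the list median was 1.11, 6 of the 15 were, and *Fbxo47* was among them (log2 fold change 1.39, adjusted p = 0.278).

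The rest of shelterin showed no change past the limit. All 6 partners of TERF1 were tested, 0 passed in limma, and their median log2 fold change was 0.01. *Terf2*, the other DNA-binding subunit, was at 12.3 ± 0.734 FPKM in Ctrl and 10.9 ± 1.75 FPKM in cKO. *Tinf2*, the subunit that joins TERF1 and TERF2, was at 10.9 ± 2.59 and 13.6 ± 2.75 FPKM. Cytoplasmic dynein and dynactin, the motor that pulls on KASH5, had 18 of 19 genes tested, 0 past the limit in limma and a median of 0.00. Its heavy chain gene *Dync1h1* was at 27.8 ± 5.57 FPKM in Ctrl and 28.0 ± 7.26 FPKM in cKO.

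Of 14 genes of the nuclear envelope bridge and lamina, 12 were tested and 2 passed the unadjusted limit, both higher in cKO, where 2.68% of all genes did so. *Emd*, which encodes emerin of the inner nuclear membrane, measured 24.7, 23.3 and 24.0 FPKM in Ctrl and 37.1, 31.7 and 33.4 FPKM in cKO. The groups were well apart, with a log2 fold change of 0.49 (SE 0.11, adjusted p = 0.978, exact permutation p = 0.1). This call held with each library left out in turn, where the fold change was 0.42 to 0.53. It also held with the germ-cell covariate, where the fold change was 0.47 (adjusted p = 0.674). *Banf1*, which encodes the chromatin-binding partner of emerin, measured 86.5, 104 and 92.8 FPKM in Ctrl and 125, 110 and 124 FPKM in cKO. It did not overlap between groups (log2 fold change 0.34, SE 0.13, exact permutation p = 0.1). Its call was lost with the germ-cell covariate, where the fold change was 0.29, and with quantile normalization (0.34). It was also lost without Ctrl 1 (0.28), Ctrl 3 (0.33), cKO 1 (0.31) or cKO 3 (0.32). *Syne3*, which encodes a KASH protein of somatic cells, was at 0.984 ± 0.425 FPKM in Ctrl and 0.397 ± 0.0978 FPKM in cKO, with no overlap (exact permutation p = 0.1), and did not pass. *Syne1* (0.781 ± 0.054 against 0.651 ± 0.0601 FPKM in Ctrl and cKO) and *Spag4* (0.935 ± 0.0331 against 0.757 ± 0.065 FPKM) were also lower without overlap. Neither passed, and 8.68% of all genes tested did not overlap in either direction. *Lmna*, the lamin A and C gene, was at 18.2 ± 6.44 and 12.0 ± 2.30 FPKM (exact permutation p = 0.3). The list median was -0.11. Both called genes are expressed in most cells of the ovary, and which cells the difference came from was not tested.

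Of 10 cyclins, kinases and inhibitors beside *Cdk2*, 9 were tested, 0 passed the limit in limma and the median was -0.30. *Ccne1*, a cyclin gene of CDK2, was at 15.6 ± 5.55 FPKM in Ctrl and 9.57 ± 0.562 FPKM in cKO (exact permutation p = 0.3). *Ccnb3*, a cyclin gene of meiotic cells, measured 3.62, 15.7 and 23.9 FPKM in Ctrl and 6.33, 1.98 and 7.19 FPKM in cKO. Its Ctrl libraries followed the germ-cell order while cKO 1 and cKO 3 stayed below Ctrl 2, and the log2 fold change was -1.14 (exact permutation p = 0.3). With the germ-cell covariate that of *Ccnb3* was -1.94 (adjusted p = 0.477), and without Ctrl 1 it was -1.86, both past the unadjusted limit in limma.

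**Figure D4:**
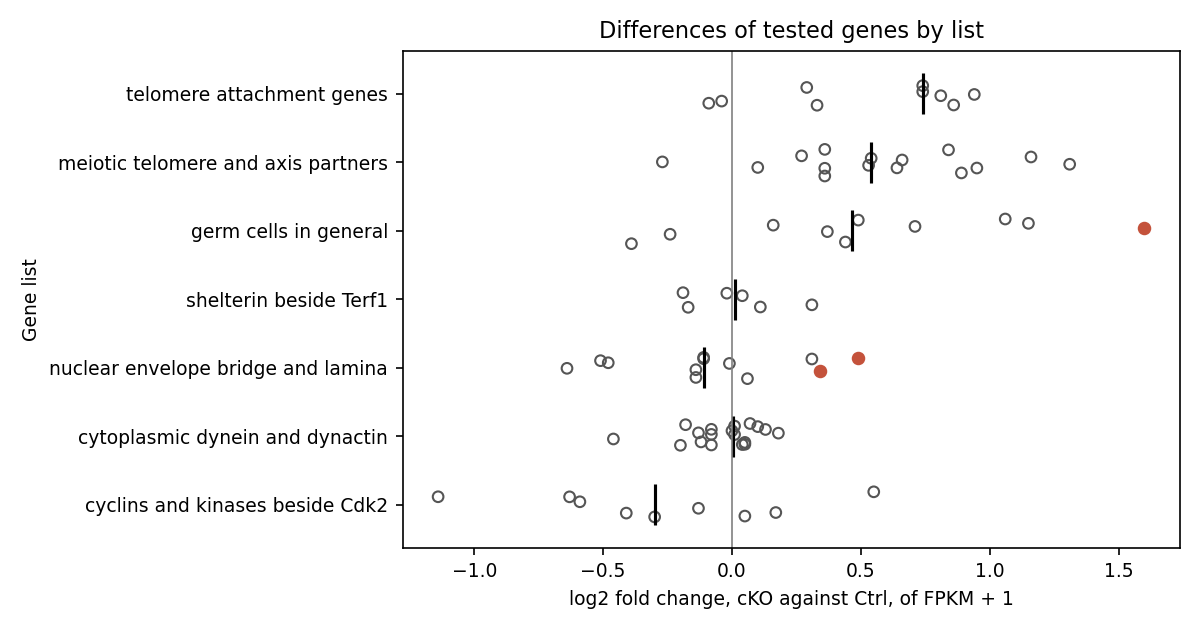
Log2 fold change of FPKM + 1, cKO against Ctrl, for each tested gene of 7 lists, with 1 point per gene and a black bar at the list median. Filled points passed an unadjusted limma p below 0.05, and these are *Dazl* among the germ-cell genes and *Emd* and *Banf1* among the nuclear envelope genes. Medians are 0.74, 0.54 and 0.46 in the upper 3 lists and between -0.30 and 0.01 in the lower 4, and without Ctrl 1 the germ-cell median is -0.06.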

How the data were processed

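Groups and replicate numbers came from the sample labels. The authors aligned paired-end reads of poly(A) RNA to GRCm38 with HISAT2 2.0.5, counted them with featureCounts and deposited FPKM values per gene. No source used here gives the annotation release or the use of strand. The deposited table also gives gene length, and exon lengths of the 9 genes equal those of GENCODE M21. From FPKM and length, 100% of values came out as whole reads within 0.05, which gave the depth per library. No pair of libraries was identical. The study's test on counts was not repeated. In its place limma (3.58.1, R 4.3.3) was used, two-sided on log2(FPKM + 1), with an intensity trend, for genes with a mean of at least 0.5 FPKM. The deposited values are FPKM, and the recovered reads were used with voom as an alternative. The fit was tested on simulated libraries. Exact permutation tests were two-sided. Nothing states that replicates are separate animals beyond the paper's methods, so p-values measure the spread between these libraries. The genes, lists and alternatives were chosen with earlier results of these data known. Named genes are the 9, *Srsf1*, genes of each list past the limit and up to 4 others, and 3 similar profiles for each of 5 genes. Tables and figures were made in Python 3.11.15 with pandas 2.3.3, numpy 2.4.6, matplotlib 3.10.9 and scipy 1.17.1.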

Additional observations from a re-analysis of the deposited data

How the results depend on the processing

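Across 16 alternatives, 128 of the 144 fold changes of the 9 genes kept their direction and their side of the unadjusted limit, 12 moved past it and 4 changed sign. All 4 were of *Sun2*, at 0.16 with the germ-cell covariate, 0.08 without Ctrl 1, 0.05 without cKO 1 and 0.06 without cKO 3, in a range from -0.24 to 0.08 with 1 library left out. The number of the 9 past the limit was 1 with quantile normalization (*Ccdc155*), 1 with the covariate (*Spdya*) and 0 to 7 with 1 library left out. All genes past it numbered 736 higher and 595 lower with no minimum FPKM, 583 lower with the covariate, and 202 to 1461 higher and 163 to 1039 lower with 1 library left out. Of the 5 pathway lists, 4 genes passed with no minimum FPKM, 1 with quantile normalization, 4 with the replicate block, 7 with the covariate and 1 to 13 with 1 library left out. Relative to the germ-cell list, groups did not overlap for 2 to 5 of the 9 with 1 library left out, and for 3.07% to 51.8% of all genes tested. The 5 came without Ctrl 3 (24.7% of all genes) and without cKO 2 (51.8%). The deviations of same-numbered libraries from their group means correlated at -0.389, -0.03 and 0.117. With 3 libraries a group, this cannot show whether the replicate numbers pair the libraries. With the number as a block 434 genes were higher, 247 lower and 0 of the 9 past the limit, and *Banf1* was not past it. After adjustment 4 genes passed without Ctrl 1 and 0 under every other alternative. The lowest depth behind a value of the 9 was 49 reads, for *Terb2* in Ctrl 1. The cause of these changes was not tested.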
